A study of Mus musculus with 2 samples.

Results

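The genes described are 10 genes of heme and iron handling, *Cd163*, *Hmox1*, *Slc40a1*, *Fth1*, *Ftl1*, *Hp*, *Slc11a1*, *Tfrc*, *Blvrb* and *Cp*, chosen by name from the 32285 genes in the count tables. All 10 were in both tables. They were measured by single-cell RNA sequencing (scRNA-seq) with the 10x Genomics GEM-X 5′ v3 chemistry in live CD45+ leukocytes, which FACS had separated from 7-AAD-stained dead cells, out of mouse hearts after myocardial infarction (MI). The study asked what LYVE-1, a hyaluronan receptor of lymphatic endothelium and tissue macrophages, does in macrophages. The WT library came from hearts of wild-type animals and the KO library from hearts with the genotype *Lyve1* KO. All animals had MI at postnatal day 2 and were 9 days old at collection, 7 days after MI, and each library is a pool of 5 hearts. The study's methods name a *Lyve1*-/- strain, with no promoter or Cre, and C57BL/6 or CD1 animals as its WT mice, and the strain used for these hearts is not given in the sources used here.

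Each genotype had 1 library, so no difference between genotypes could be tested, and cells of a pool are not replicates. Values are given for each library with 95% intervals that cover counting error only. Levels are CPM, the unique molecular identifiers (UMIs, 1 for each RNA molecule captured) of a gene per 1000000 UMIs of the same cells. Differences between libraries are log2 ratios of KO over WT after 10 CPM were added to both sides, which understates the difference for low genes. Where a pair of values is given without labels, the first is WT and the second KO. After cell limits and removal of the highest doublet scores, 4187 WT cells with a median of 11106 UMIs and 3391 KO cells with a median of 12856 UMIs remained, of 67968938 and 61555917 UMIs deposited. Cells were clustered without the 10 genes, and clusters were named by marker lists, as like a cell type. This gave 1240 WT and 554 KO CCR2- macrophage-like cells, 231 and 229 CCR2+ macrophage-like cells, 480 and 532 monocyte-like cells, and 351 and 337 neutrophil-like cells, called the 4 classes here. Of the CCR2+ cells, 39 in each library were in a cluster led by *Cd209a*, which had 2 markers of dendritic cells among the 10 genes that led it. The libraries shared 9 cell barcodes. *Lyve1* itself was at 520 CPM (512–528) in the WT and 21.1 CPM (18.8–23.5) in the KO CCR2- class, as the labels say, although 310 UMIs were still counted there in the KO library. In the CCR2+ class it was at 40.4 and 20.7 CPM. The monocyte-like class had 2 and 42 UMIs of *Lyve1* and the neutrophil-like class 7 and 18. Over all kept cells 15731 and 751 were counted.

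Macrophages take up dying red cells and free hemoglobin and recycle the iron. Haptoglobin, the product of *Hp*, binds hemoglobin in plasma, and CD163 is the macrophage receptor that takes up the complex. Heme oxygenase 1 (*Hmox1*) opens the heme ring, which releases iron and biliverdin, and biliverdin reductase B (*Blvrb*) reduces some biliverdin isomers and flavins. The iron is stored in ferritin, a shell of heavy (*Fth1*) and light (*Ftl1*) chains, or leaves the cell through ferroportin (*Slc40a1*), the only known iron exporter, with ceruloplasmin (*Cp*) oxidizing it for transferrin. The transferrin receptor (*Tfrc*) brings iron in, and NRAMP1 (*Slc11a1*) pumps divalent metals out of the phagosome.

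Iron regulatory proteins set several of these genes after transcription by binding a hairpin, the iron-responsive element, whose loop is CAGTGN above a paired stem with an unpaired C. The element in a 5′ UTR is known to hold back translation when iron is low and in a 3′ UTR to protect the RNA. scRNA-seq counts see the RNA and not the protein, so the sites of the members that carry them are shown first. They were searched in GENCODE transcripts of GRCm38 on the transcript strand as a C, any 5 bases and the loop CAGTGN, with those 5 bases paired to the 5 after the loop, G:U pairs allowed. The match was found in the 5′ UTR of *Slc40a1*, *Fth1* and *Ftl1* and in the 3′ UTR of *Tfrc*, where it occurred 4 times, and in none of the other 6 members. Over all genes with an annotated UTR, 31 of 20899 (0.148%) held a match in the 5′ UTR and 129 of 21022 (0.614%) in the 3′ UTR. The 27 bases of each match are printed 5′ to 3′ with the loop in capitals. The first is at chr1:45925466-45925492 on the minus strand, in exon 1 of 8. The second is at chr19:9982733-9982759 on the plus strand, in exon 2 of 5 of the transcript used. The third is at chr7:45459780-45459806 on the minus strand, in exon 1 of 4.
Slc40a1: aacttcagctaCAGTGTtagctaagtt
Fth1: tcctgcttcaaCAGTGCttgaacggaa
Ftl1: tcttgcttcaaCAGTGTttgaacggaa
The 4 sites of *Tfrc* are in its last exon, 19 of 19, on the plus strand of chromosome 16. They run from 32631220 to 32631246, 32631599 to 32631625, 32631664 to 32631690 and 32631711 to 32631737.
Tfrc site 1: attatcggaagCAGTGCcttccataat
Tfrc site 2: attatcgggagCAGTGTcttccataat
Tfrc site 3: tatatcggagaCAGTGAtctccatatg
Tfrc site 4: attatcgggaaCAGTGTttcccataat
A match is a description of these letters and not a measurement of binding.

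Across the myeloid classes the genes fell into distinct patterns. *Cd163*, *Blvrb*, *Cp*, *Hmox1* and *Tfrc* were highest in the CCR2- class, *Hp* and *Slc40a1* in the neutrophil-like class, and *Slc11a1* in the monocyte-like class. *Fth1* and *Ftl1* were highest in the CCR2+ class. The next class was close for *Ftl1* in both libraries, but for *Fth1* only in WT, where it was the neutrophil-like class, whereas in KO it was the CCR2- class. For all 10 genes the same class was highest in WT and KO. How often this holds over all genes was not counted, so it is no result about the members. Classes were built from the same cells, so these are descriptions.

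**Figure D1:**
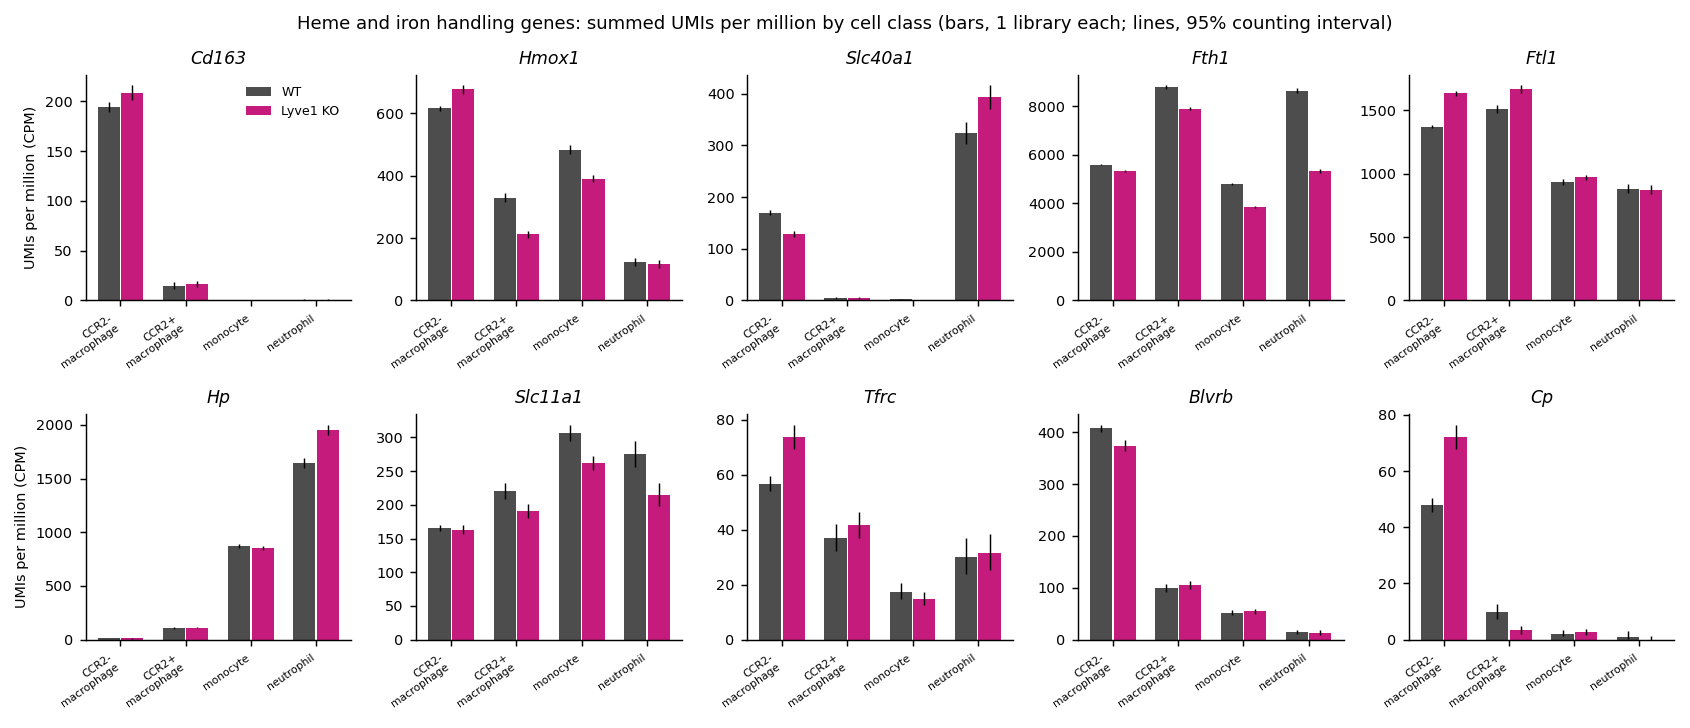
Level of each of the 10 genes (CPM, linear axis from 0) by cell class, with 1 bar for the WT and 1 for the KO library and lines for the 95% counting interval. *Cd163* stood at 195 (WT) and 209 (KO) in the CCR2- class and at 0 in the neutrophil-like class, and *Hp* had the opposite order, with 1647 and 1953 in the neutrophil-like class.

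The hemoglobin branch was split between cells. *Cd163* (chromosome 6, 124304656 to 124330527) was at 195 CPM (190–200) in the WT and 209 CPM (201–216) in the KO CCR2- class. In the CCR2+ class it was at 14.8 and 16.0 CPM, in the monocyte-like class 2 UMIs were counted in each library, and in the neutrophil-like class 0 in both. With every cell thinned to 3000 UMIs, 24.3% (21.9–26.9) of WT and 23.9% (20.3–27.9) of KO CCR2- cells had a *Cd163* UMI, against 40.6% and 41.3% unthinned. Free RNA can give UMIs to cells that do not express a gene, and B cell-like cells, which should lack *Cd163*, served as the reading of it. None of 374 WT and 463 KO thinned B cell-like cells had one, which allows shares up to 0.981% and 0.794% by the exact interval. The median depth was 10818 and 13148 UMIs in B cell-like cells and 22241 and 23509.5 in the CCR2- class. In the CCR2+ class the thinned share was 2.29% and 1.79%.

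*Hp* (chromosome 8, 109575128 to 109579172) had the opposite order. It was at 1647 CPM (1600–1694) in the WT and 1953 CPM (1903–2003) in the KO neutrophil-like class, at 872 and 852 CPM in the monocyte-like class, at 111 and 113 CPM in the CCR2+ class, and at 16.6 and 11.6 CPM in the CCR2- class. No neighbours in this order overlapped between the libraries. After thinning, an *Hp* UMI was found in 87.6% and 92.1% of the neutrophil-like class, in 70.2% and 68.0% of the monocyte-like class, and in 1.67% and 0.965% of the CCR2- class, against 0 and 0.216% of B cell-like cells. The gene for the hemoglobin-binding protein and the gene for the receptor of the complex were thus each lowest where the other was highest. Within the CCR2- class, 1 cluster of 57 WT and 49 KO cells, led by *Saa3*, held 97.7% of the *Hp* UMIs in WT and 98.2% in KO, with 4.60% and 8.84% of the cells. Its *Hp* level was 173 and 59.0 CPM (log2 ratio -1.41, interval -1.64 to -1.18), while *Cd163* in the same cluster was at 218 and 229 CPM.

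The enzymes that follow uptake were spread more widely. *Hmox1* (chromosome 8, 75093621 to 75100589) was at 616 and 676 CPM in the CCR2- class, at 484 and 391 CPM in the monocyte-like class, at 330 and 212 CPM in the CCR2+ class, and at 122 and 115 CPM in the neutrophil-like class. Neighbours in this order did not overlap. The thinned share of cells with a UMI was 54.6% and 53.5% in the CCR2- class, 42.3% and 39.8% in the monocyte-like class, 33.5% and 37.5% in the CCR2+ class, and 22.7% and 24.4% in the neutrophil-like class, against 1 of 374 and 6 of 463 B cell-like cells. *Blvrb* (chromosome 7, 27447978 to 27466144) was at 407 and 374 CPM in the CCR2- class, at least 3-fold over every other of the 4 classes in both libraries. It was at 98.9 and 105 CPM in the CCR2+ class, 51.8 and 54.7 CPM in the monocyte-like class and 14.1 and 13.5 CPM in the neutrophil-like class. B cell-like cells had 62.6 and 59.4 CPM of *Blvrb*, close to the monocyte-like class, so that this gene was not restricted to myeloid cells.

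Ferritin RNA was found in every class. The *Fth1* and *Ftl1* UMIs together made up 0.697% of all UMIs of the CCR2- class in both libraries, 1.03% and 0.956% in the CCR2+ class, 0.574% and 0.483% in the monocyte-like class, and 0.945% and 0.623% in the neutrophil-like class. *Fth1* (chromosome 19, 9980598 to 9985098) was at 8778 and 7886 CPM in the CCR2+ class, 8626 and 5311 CPM in the neutrophil-like class, 5581 and 5315 CPM in the CCR2- class, and 4777 and 3847 CPM in the monocyte-like class. The ranges of the first 3 classes overlapped from one to the next, and only the monocyte-like class stood apart, below them. *Ftl1* (chromosome 7, 45457944 to 45459884) was at 1512 and 1667 CPM in the CCR2+ class and 1371 and 1633 CPM in the CCR2- class, which overlapped. It was at 933 and 971 CPM in the monocyte-like class and 879 and 875 CPM in the neutrophil-like class. Reads of *Ftl1* can be split with its near copy *Ftl1-ps1*, which had 24.9 and 25.8 CPM in the CCR2- class, and reads that match both copies were not measured here, so its level is uncertain. B cell-like cells also carried ferritin RNA, at 1978 and 2154 CPM of *Fth1*. Over single thinned cells of a class, the Pearson r of log2-transformed *Fth1* and *Ftl1* UMIs lay between 0.18 and 0.43. This is a description of cells that share a library and a depth.

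*Slc40a1* (chromosome 1, 45908068 to 45926523), which encodes the iron exporter, was found in the neutrophil-like and CCR2- classes and hardly in the other 2. It was at 324 CPM (303–346) in the WT and 393 CPM (371–416) in the KO neutrophil-like class, and at 170 CPM (165–174) and 129 CPM (124–135) in the CCR2- class. In the CCR2+ class it was at 4.82 and 5.10 CPM and in the monocyte-like class at 1.94 and 0.681 CPM. After thinning, 47.3% (41.8–52.8) of the WT and 60.4% (54.8–65.9) of the KO neutrophil-like class had a UMI, although these cells were shallow, with medians of 7656 and 7946 UMIs. The share was 27.3% and 24.1% in the CCR2- class and 0.671% and 0 in the monocyte-like class, against 0.267% and 0 in B cell-like cells. The monocyte-like share lay within the intervals of that background.

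*Cp* (chromosome 3, 19957054 to 20009145), a ferroxidase that works beside the exporter, was at 47.9 and 72.1 CPM in the CCR2- class, at 9.81 and 3.31 CPM in the CCR2+ class, and at no more than 2.72 CPM in the other 2 classes. Another ferroxidase gene, *Heph*, from the pathway list described below, was at 612 and 650 CPM in the CCR2- class. It was highest in the CCR2+ class in WT (731 CPM) and in the monocyte-like class in KO (825 CPM). Neutrophil-like cells, with the most *Slc40a1*, had 3 *Cp* UMIs in WT and 0 in KO. *Slc11a1* (chromosome 1, 74375195 to 74386062) was spread over all 4 classes, at 307 and 262 CPM in the monocyte-like class, 275 and 215 CPM in the neutrophil-like class, 220 and 190 CPM in the CCR2+ class and 166 and 163 CPM in the CCR2- class. Only the last of these did not overlap with its neighbour. *Tfrc* (chromosome 16, 32608920 to 32632794) was at 56.8 and 73.7 CPM in the CCR2- class, 36.9 and 41.6 CPM in the CCR2+ class, 31.3 CPM in the KO neutrophil-like class, with 85 UMIs in WT and 95 in KO, and 17.5 and 14.9 CPM in the monocyte-like class. Lymphocytes had levels near those of macrophages or above, with 88.0 and 66.0 CPM in B cell-like and 106 and 74.0 CPM in T cell-like cells.

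**Figure D2:**
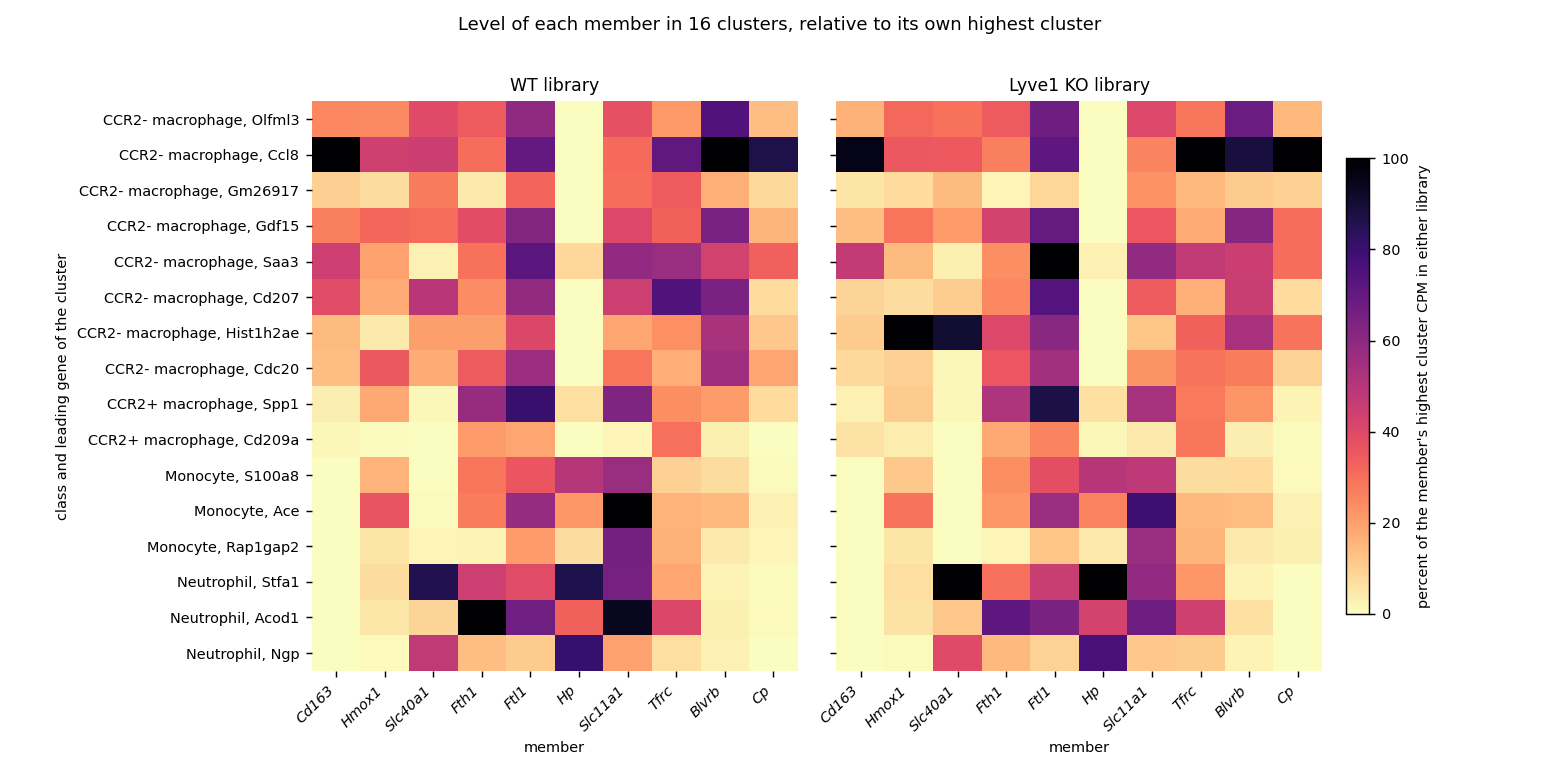
Heat map of 16 clusters (rows, named by class and leading gene) and the 10 genes (columns) in the WT and KO libraries, where colour is the CPM as a percentage of that gene's highest cluster in either library. *Cd163* and *Blvrb* peaked in the Ccl8-led CCR2- cluster (491 and 580 CPM in WT), *Hp* and *Slc40a1* in the Stfa1-led neutrophil cluster and *Fth1* in the Acod1-led one (17692 CPM in WT). The *Hmox1* scale is set by the KO Hist1h2ae-led CCR2- cluster (2264 CPM), where 1 cell held 964 of 1439 UMIs. The highest WT cluster of *Hmox1* was the Ccl8-led one, at 993 CPM.

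Within the classes the genes were uneven between clusters. Of the 8 CCR2- clusters, the one led by *Ccl8* (191 WT and 133 KO cells) had the highest *Cd163*, at 491 and 469 CPM, the highest *Blvrb*, at 580 and 514 CPM, and the highest *Cp*, at 146 and 168 CPM. It held 45.6% of the *Cd163* UMIs of the WT CCR2- class with 15.4% of the cells, and 61.5% in KO with 24.0% of the cells. It held 55.1% of the *Cp* UMIs in WT and 63.9% in KO. The largest CCR2- cluster, led by *Olfml3* (500 and 180 cells), had *Cd163* at 121 and 79.6 CPM and *Cp* at 22.8 and 25.1 CPM. The Saa3-led cluster, with *Hp*, had little *Slc40a1*, 12.4 and 14.1 CPM, where the Ccl8-led cluster had 224 and 174 CPM.

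The neutrophil-like class fell into 3 clusters with different iron genes. The cluster led by *Stfa1* (248 WT and 267 KO cells) had *Slc40a1* at 428 and 500 CPM and *Fth1* at 7815 and 5274 CPM. The cluster led by *Acod1* (79 and 41 cells) had the highest *Fth1* of all myeloid clusters, 17692 and 12678 CPM, and little *Slc40a1*, 44.6 and 57.1 CPM. The cluster led by *Ngp*, a granule gene of immature neutrophils (24 and 29 cells), had *Fth1* at 2362 and 2587 CPM, *Slc40a1* at 238 and 198 CPM, and *Hp* at 1754 and 1665 CPM. Storage and export genes thus had opposite orders between the Acod1-led and Stfa1-led clusters in both libraries. Within the monocyte-like class, the cluster led by *Ace* (174 and 205 cells) had more *Hmox1*, at 824 and 660 CPM, and more *Slc11a1*, at 440 and 348 CPM, than the cluster led by *S100a8* (240 and 244 cells), at 362 and 261 CPM and at 250 and 213 CPM. *Hp* was the reverse, at 472 and 563 CPM in the Ace-led and 1093 and 1088 CPM in the S100a8-led cluster.

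Single cells of the CCR2- class were split by whether they had a *Cd163* UMI. Of 291 WT cells with a *Cd163* UMI after thinning, 69.1% had an *Hmox1* UMI, against 49.9% of 905 cells without one, and in KO these were 64.5% of 124 cells, against a share of 394 cells whose interval ran from 45% to 55%. *Slc40a1* was found in 39.9% against 23.3% in WT and 36.3% against 20.3% in KO. *Cp* was found in 20.3% against 7.29% in WT and 18.5% against 8.88% in KO. *Blvrb* was found in 73.5% against 59.3% in WT and 67.7% against 56.9% in KO. For *Tfrc* these were 17.9% against 9.72% and 20.2% against 13.96%. In KO the intervals of *Cp*, *Blvrb* and *Tfrc* overlapped. *Fth1* (98.3% against 92.8% and 100% against 90.6%) and *Ftl1* were also found more often in both libraries, but the intervals of *Ftl1* overlapped in WT. *Hp*, found in few cells, differed in direction between the libraries. *Slc11a1* was found less often in WT, with 27.1% (22.1–32.6) against 36.0% (32.9–39.2). In KO it was 30.6% against 33.5%, with overlapping intervals. The split was made over all CCR2- clusters together, and these differed in the same genes. The Ccl8-led cluster held 45.6% of the *Cd163* UMIs in WT and 61.5% in KO, with 15.4% and 24.0% of the cells. The cluster led by *Gm26917* held a smaller share of the *Cd163*, *Hmox1*, *Blvrb*, *Cp* and *Fth1* UMIs than of all class UMIs in both libraries. The split was not repeated within clusters, so the part of the cluster mixture in it was not tested. These cells share a pool and the same thinned depth, and the shares are descriptions.

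Between the genotypes, no member with at least 100 UMIs over both libraries differed by 2-fold in any of the 4 classes after 10 CPM were added. In the CCR2- class 0 of 10 members were past 2-fold in either direction, against 0.468% of all 11104 genes there. The counts were 0 of 8 in the CCR2+ class, against 0.444% of 8556 genes, 0 of 7 in the monocyte-like class, against 0.214% of 8884 genes, and 0 of 7 in the neutrophil-like class, against 0.925% of 4757 genes. At these background shares a count of 0 is no result about the members. The members under the minimum were *Slc40a1* and *Cp* in the CCR2+ class, *Cd163*, *Slc40a1* and *Cp* in the monocyte-like class, and *Cd163*, *Blvrb* and *Cp* in the neutrophil-like class. The median log2 ratio was 0.04 over the members and -0.06 over all genes in the CCR2- class, 0.04 and -0.02 in the CCR2+ class, -0.14 and 0.01 in the monocyte-like class, and -0.01 and -0.01 in the neutrophil-like class.

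**Figure D3:**
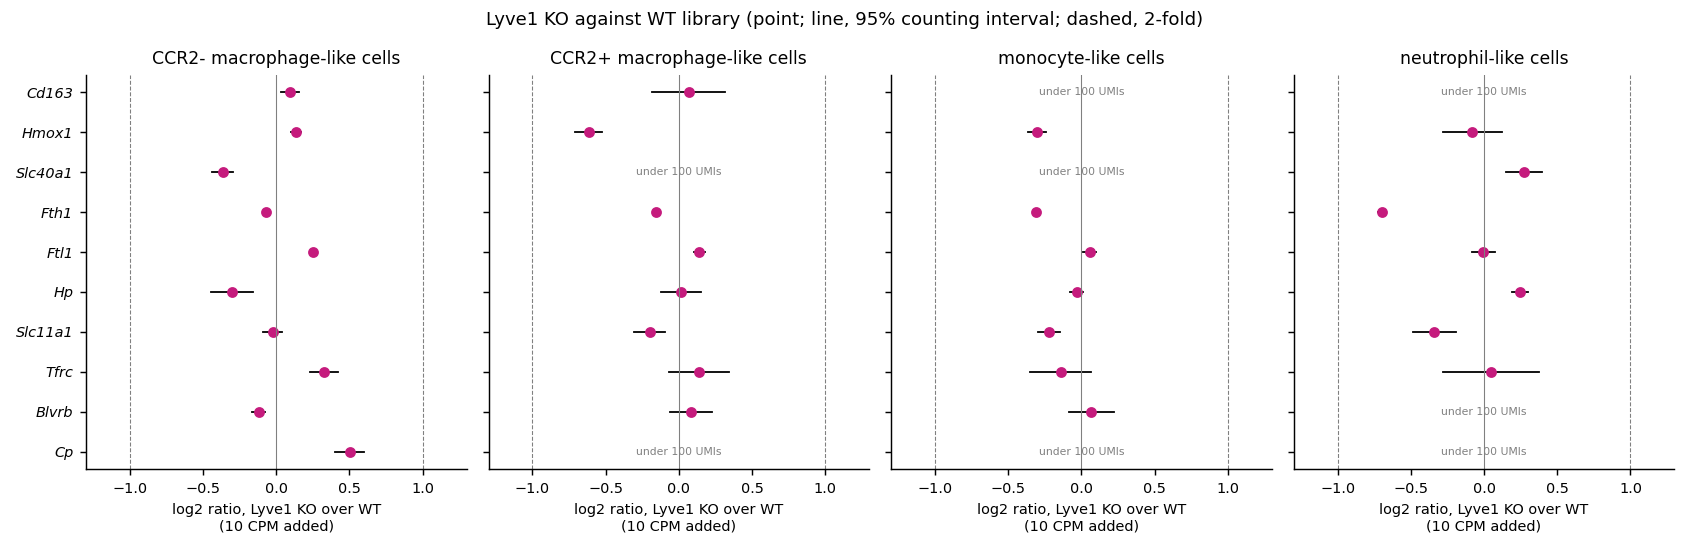
Log2 ratio of KO over WT (10 CPM added) of each gene in the 4 classes, with lines for the 95% counting interval and dashed lines at 2-fold, and genes under 100 UMIs marked as such. No gene reached a dashed line, and *Fth1* in the neutrophil-like class (-0.70) and *Hmox1* in the CCR2+ class (-0.62) came nearest.

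In the CCR2- class *Cp* was higher in KO, at 72.1 against 47.9 CPM (log2 ratio 0.50, interval 0.40–0.60), *Tfrc* was higher, at 73.7 against 56.8 CPM (0.33, 0.23–0.42), and *Ftl1* was higher, at 1633 against 1371 CPM (0.25, 0.23–0.27). *Slc40a1* was lower, at 129 against 170 CPM (-0.37, -0.44 to -0.30). *Hp* was lower, at 11.6 against 16.6 CPM (-0.30, -0.44 to -0.16). The other 5 genes differed by at most 0.13 in size: *Cd163* by 0.10, *Hmox1* by 0.13, *Fth1* by -0.07, *Blvrb* by -0.12 and *Slc11a1* by -0.03, the last with an interval across 0. Among the members with a match to the iron-responsive element, the RNA of *Ftl1* and *Tfrc* was higher and that of *Slc40a1* lower. *Fth1*, at -0.07, was close to the median of -0.06 over all genes of the class. Other genes were not grouped by such a site here, so these values are no result about the element.

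The *Cd163* level of the whole class was close in both libraries, while most of its clusters were lower in KO. *Cd163* was lower in KO in 7 of 8 CCR2- clusters, with the interval below 0 in 4. In the Olfml3-led cluster the log2 ratio was -0.55 (-0.70 to -0.39), in the cluster led by *Gdf15*, a stress-response cytokine, -0.88 (-1.16 to -0.61), and in the small cluster led by *Cd207* (72 and 18 cells) -1.92 (-2.52 to -1.33). In the Ccl8-led cluster it was -0.06 (-0.15 to 0.02). At the same time the Ccl8-led cluster, with the most *Cd163*, was a larger share of the KO class, with 18.1% and 27.4% of the class UMIs. So was the Saa3-led cluster, with 9.38% and 19.3% of the class UMIs and *Cd163* at 218 and 229 CPM. The cluster levels of KO were also averaged at the cluster mixture of WT, with each cluster weighted by its share of WT class UMIs. The log2 ratio of *Cd163* in the class was then -0.31 in place of 0.10. The same step took *Cp* from 0.50 to 0.20 and *Tfrc* from 0.33 to 0.07, and it took *Hp* from -0.30 to -0.74. *Slc40a1* was lower in KO in 6 of 8 CCR2- clusters, all with the interval below 0, and *Blvrb* in 6 of 8, with the interval below 0 in 5. *Slc11a1* was lower in 7 of 8, but its interval was below 0 in 2 and spanned 0 in 6. *Hmox1* was lower in 5 of 8, *Fth1* and *Tfrc* in 4, *Ftl1* and *Cp* in 2, and *Hp* in 4 of the 5 clusters with a UMI. How often this holds over all genes, whose median log2 ratio in the class was -0.06, was not counted. The counts are thus no result about the members. Apart from that of *Hp*, they include the shallow cluster led by *Gm26917* (161 and 80 cells, median 5738 UMIs). There *Fth1* (-1.02), *Ftl1* (-1.85) and *Tfrc* (-0.94) were lower in KO too, while *Hmox1* (0.05) and *Cp* (0.20) were not. The cluster led by *Cdc20* had 12 KO cells, with 2 *Slc40a1* UMIs. The number of cells was also small in the Cd207-led cluster. A cluster can differ in its cells as well as in its levels, which cannot be told apart here.

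**Figure D4:**
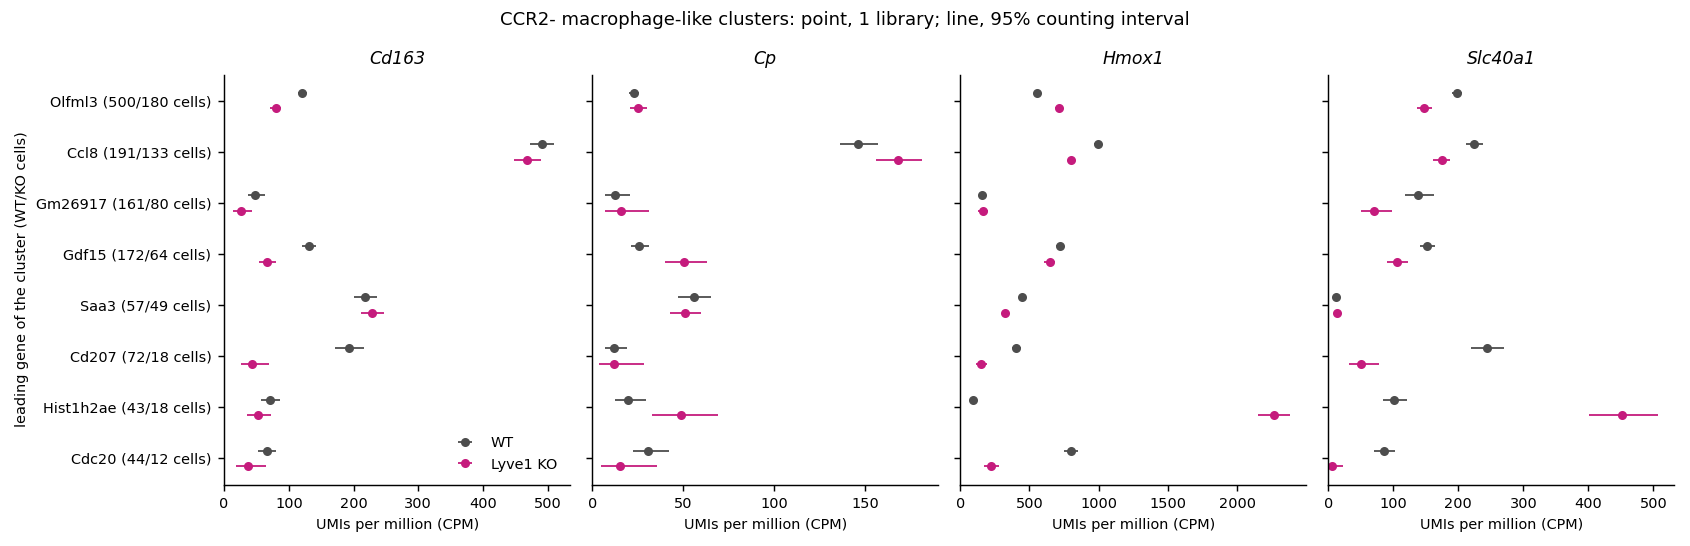
Level (CPM, linear axis) of *Cd163*, *Cp*, *Hmox1* and *Slc40a1* in each of the 8 CCR2- clusters, with a point for the WT and a point for the KO library and lines for the 95% counting interval. *Cd163* was highest in the Ccl8-led cluster in both libraries (491 and 469 CPM) and lower in KO in 7 of the 8, and the KO point of *Hmox1* in the Hist1h2ae-led cluster rests largely on 1 cell.

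In the CCR2+ class *Hmox1* was lower in KO, at 212 against 330 CPM (-0.62, -0.71 to -0.52), but 1 WT cell held 466 of the 1984 WT UMIs. Without the cell with most *Hmox1* UMIs in each library the log2 ratio was -0.33. After thinning, 3 WT cells of the class had an *Slc40a1* UMI, and these had a mean of 22.3 *Hmox1* UMIs. The 215 WT cells without one had a mean of 0.753 and the 222 such KO cells 0.734, which is nearly level. The thinned share of cells with an *Hmox1* UMI, given above, was not lower in KO. The 2 clusters of this class differed in sign, with a log2 ratio of -0.73 (-0.82 to -0.63) for *Hmox1* in the Spp1-led cluster (192 and 190 cells) and 1.90 (1.42–2.35) in the Cd209a-led cluster, which had 19 and 127 UMIs. In the CCR2- class, 1 KO cell held 964 of 9959 *Hmox1* UMIs, and without the top cells the log2 ratio there was 0.04 in place of 0.13. That cell lay in the cluster led by *Hist1h2ae*, whose 18 KO cells had 1439 *Hmox1* UMIs and 287 *Slc40a1* UMIs, with 115 and 123 in its 43 WT cells, and 1 KO cell of this cluster held 119 of the 287. Also lower in KO in the CCR2+ class were *Fth1* (-0.15, -0.17 to -0.14) and *Slc11a1* (-0.20, -0.30 to -0.09), while *Ftl1* was higher (0.14, 0.10–0.18). In the monocyte-like class *Hmox1* was lower in KO as well (-0.30, -0.36 to -0.24), as were *Fth1* (-0.31, -0.33 to -0.29) and *Slc11a1* (-0.22, -0.30 to -0.15). *Hp* in the monocyte-like class was at 852 against 872 CPM (-0.03, -0.08 to 0.01).

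In the neutrophil-like class *Fth1* was lower in KO, at 5311 against 8626 CPM (-0.70, -0.73 to -0.67). It was lower within the Stfa1-led cluster (-0.57, -0.60 to -0.53) and within the Acod1-led cluster (-0.48, -0.54 to -0.42), and it was 0.13 (0.03–0.24) in the Ngp-led cluster. The Acod1-led cluster, with the most *Fth1*, had 22.5% of the cells of the neutrophil-like class in WT and 12.2% in KO. Its shares of the class UMIs were 18.2% and 8.66%. At the WT mixture, which weights clusters by their share of the WT class UMIs, the log2 ratio of *Fth1* was -0.49. *Ftl1* was level over all cells, at 875 against 879 CPM (-0.01, -0.09 to 0.07), unlike the heavy chain. In cells placed by sex-linked transcripts *Ftl1* was at -0.37 in male cells, where *Fth1* was lower too, and 0.51 in the few female cells. Many cells of the class could not be placed in either part. By cluster *Ftl1* was at 0.21 (0.12–0.30) in the Stfa1-led, -0.06 (-0.24 to 0.11) in the Acod1-led and -0.19 (-0.54 to 0.15) in the Ngp-led cluster. *Slc11a1* was lower (-0.34, -0.49 to -0.19), and *Slc40a1* (0.27, 0.15–0.39) and *Hp* (0.24, 0.19–0.30) were higher in KO over all cells of the class, but not in its few female cells, where they were at -0.41 and -0.19.

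Transcripts of red cells were lower in KO in each of the 4 classes. The summed level of 8 erythroid genes, with *Hbb-bs* highest, was 44.6 and 8.22 CPM in the CCR2- class, 18.6 and 8.26 CPM in the CCR2+ class, 40.1 and 27.4 CPM in the monocyte-like class, and 108 and 15.5 CPM in the neutrophil-like class. In B cell-like cells it was 49.9 and 6.49 CPM and in T cell-like cells 150 and 13.4 CPM. Leaving out the cells that had an erythroid UMI took a larger part of the WT than of the KO cells. It left 870 of 1240 WT and 484 of 554 KO cells in the CCR2- class. In the CCR2+ class 175 of 231 and 201 of 229 were left, and in the neutrophil-like class 280 of 351 and 307 of 337. In the cells left, *Fth1* in the neutrophil-like class was at -0.59, *Hmox1* in the CCR2+ class at -0.39 and *Cp* in the CCR2- class at 0.58. *Cd163* in the CCR2- class was then at 0.26 in place of 0.10 and *Slc11a1* in the neutrophil-like class at -0.21 in place of -0.34. The sign changed for *Hp* in the CCR2+ class, from 0.01 to -0.25, and for *Ftl1* in the neutrophil-like class, from -0.01 to 0.10.

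Cells could also be divided by sex-linked transcripts into animals of either sex within a pool, and several differences were not alike in them. Only cells with UMIs of *Xist* or of Y-linked genes, but not of both, could be placed. In the neutrophil-like class 148 male and 26 female cells of 351 were placed in WT, and 110 and 35 of 337 in KO. The other cells were in neither part. *Fth1* in the neutrophil-like class had a log2 ratio of -0.996 in male cells and -0.20 in the few female cells. *Slc40a1* in the neutrophil-like class had 0.37 in male and -0.41 in female cells, and *Hp* had 0.18 and -0.19. *Hmox1* in the CCR2+ class had -0.83 in male and -0.12 in female cells. The CCR2- class held 816 male and 320 female cells in WT, and 274 and 222 in KO. Its ratios over all cells thus rest on unequal mixtures of these parts and of cells placed in neither. *Slc40a1* in the CCR2- class had -0.75 in male and 0.22 in female cells. *Cp* in the CCR2- class had 0.53 and 0.47. *Hmox1* in the CCR2- class had -0.23 and 0.33. The *Cp* difference was thus alike in both parts of the pools, and those of *Slc40a1* and *Hmox1* in the same cells were opposite in sign. Whether these parts differ by sex or by the single hearts in them cannot be told apart.

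**Figure D5:**
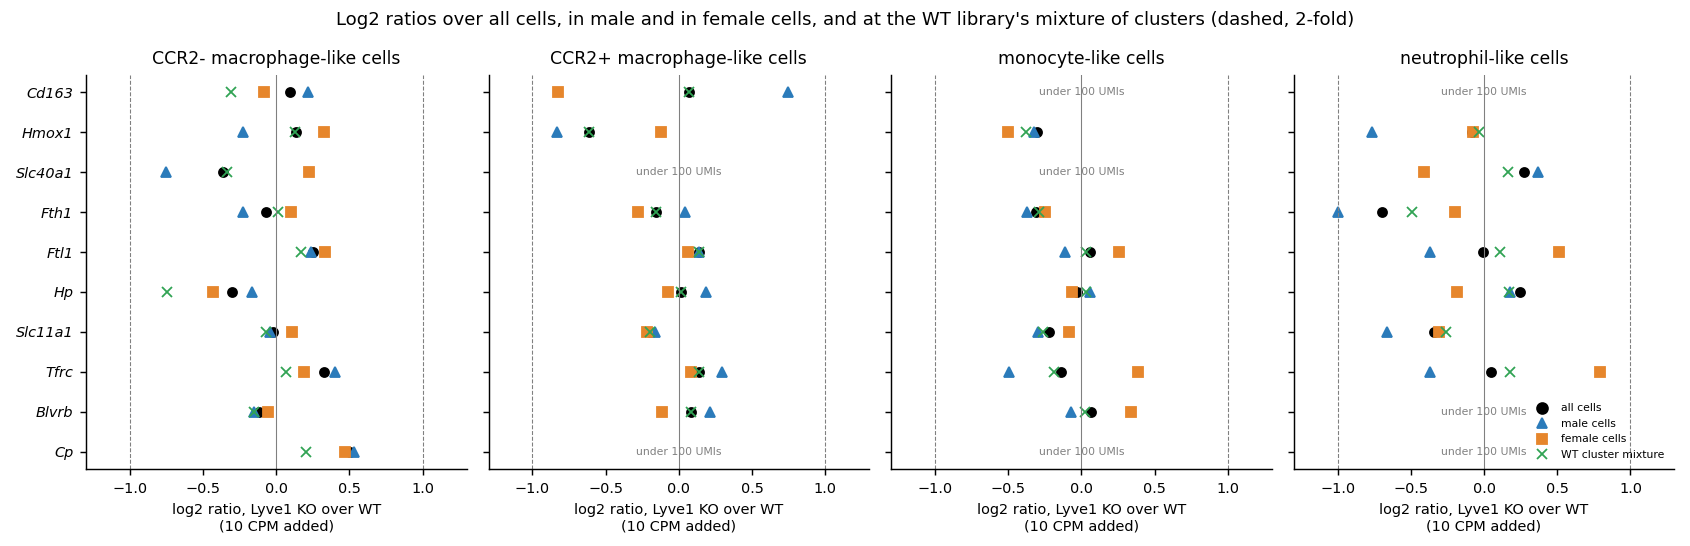
Log2 ratio of KO over WT (10 CPM added) over all cells of a class, in its male cells, in its female cells and at the WT mixture of clusters, with dashed lines at 2-fold. *Fth1* in the neutrophil-like class was at -0.70 over all cells, -0.996 in male and -0.20 in female cells, while *Cp* in the CCR2- class stayed between 0.20 and 0.53.

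The other genes of the pathway were read from a list of 62 that covers heme uptake and breakdown, iron transport and storage, their control, heme synthesis, NRF2 targets and lipid peroxidation. Of the 50, 43, 44 and 24 list genes at the UMI minimum in the CCR2-, CCR2+, monocyte-like and neutrophil-like classes, 0, 0, 1 and 0 were past 2-fold, against 0.468%, 0.444%, 0.214% and 0.925% of all genes at the minimum there. The gene past 2-fold was *Lcn2*, the siderophore-binding protein lipocalin 2, in the monocyte-like class, at 6.71 CPM in KO (69 UMIs) against 60.5 CPM in WT (499 UMIs), a log2 ratio of -2.08. In the neutrophil-like class *Lcn2* was at 2806 and 3233 CPM. The summed level of 10 neutrophil markers in the monocyte-like class was 1242 and 652 CPM, with *S100a8* highest and all 10 detected, and its part in the *Lcn2* value was not tested. The median log2 ratio over the list was 0.00 in the CCR2- class, 0.03 in the CCR2+ class and -0.02 in each of the other 2.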

How the data were processed

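The authors counted UMIs per gene and cell barcode with Cell Ranger 8.0.1, as the labels and the file header give it, on mm10, and deposited these raw counts for called cells, not normalized. The paper's reporting summary names another version. There were 5713 WT and 5285 KO barcodes. Barcodes needed 500 genes, 250 UMIs and a mitochondrial share of no more than 30%. This left out 601 WT and 874 KO barcodes by the last limit. Because scrublet (scanpy 1.11.5) marked 1 and 4 barcodes by its automatic threshold, the top scores, 98 in WT and 73 in KO, were left out. The study assigned cells to hearts from reads, which was not repeated here.

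Log normalization, CCA integration (2000 variable genes, 30 dimensions), removal of the S and G2/M scores, and clustering (k = 20, resolution 0.8) were run in Seurat 5.3.0 (R 4.3.3) without 79 genes (members, pathway list, sex-linked genes). Macrophage and monocyte clusters were clustered again. A cluster was named from marker lists, with at least 3 markers in 25% of the cells, and the scoring was set after the data were seen. Unnamed clusters (959 WT and 723 KO cells) were left out of classes.

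UMIs were summed per library and class. Intervals are exact Poisson for CPM, Clopper-Pearson for shares and conditional binomial for ratios. The depth of 67968938 and 61555917 UMIs makes the counting intervals narrow, but they hold no spread between hearts. The ratio script was tested on simulated counts. Thinning was without replacement to 3000 UMIs, leaving out shallower cells (44 WT and 36 KO CCR2- macrophage-like cells). All 10 members were named, beside pathway genes past 2-fold, clusters by their leading gene, and for each member the 3 genes with the highest Pearson r. *Heph* was named as a further ferroxidase gene, and some other pathway genes for their level in 1 class. Members and lists were chosen with earlier results of these data known. Alternatives covered cell limits, doublets, clustering features, cell cycle, resolution, pseudocount, UMI minimum, scaling (edgeR 4.0.16 TMM), weight of cells, single cells and male or female cells. The cluster mixture, low-depth clusters, erythroid UMIs and *Ftl1-ps1* were added after the data were seen. Python 3.11.15, numpy 2.4.6, scipy 1.17.1 and pandas 2.3.3 were used for the rest, and positions and UTRs are from GENCODE annotation of GRCm38.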

Additional observations from a re-analysis of the deposited data

How the results depend on the processing

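The count of members past 2-fold was 0 in each class and stayed at 0 under all 62 alternatives of it. The 32 log2 ratios had 469 alternative values, of which 355 lay within the counting interval of the reported value, 114 outside it and 0 past 2-fold, while 43 had the other sign. The widest ranges came from male or female cells alone: *Cd163* in CCR2+ macrophage-like cells ran from -0.83 to 0.75, *Tfrc* in neutrophil-like cells from -0.37 to 0.79 and *Slc40a1* in CCR2- macrophage-like cells from -0.75 to 0.22. The sign of *Cp*, *Tfrc*, *Ftl1*, *Hp* and *Blvrb* in CCR2- macrophage-like cells held under every alternative run, with *Cp* between 0.20 and 0.58. So did that of *Hmox1*, *Ftl1* and *Slc11a1* in CCR2+ macrophage-like cells, and of *Hmox1*, *Fth1* and *Slc11a1* in monocyte-like and in neutrophil-like cells. The interval of *Hmox1* in neutrophil-like cells spanned 0. A held sign does not extend to clusters, and *Tfrc* was lower in KO in 4 of 8 CCR2- clusters. Of 160 alternative shares of cells with a UMI, 63 lay outside the interval. These alternatives were thinning to fewer UMIs and stricter cell limits. Thinning to fewer UMIs by itself lowers most shares, so the count does not measure stability. Leaving out a replicate was not possible with 1 library per genotype. No paired analysis was possible because each genotype had 1 library. Depth limits the members under 100 UMIs over both libraries, which are *Slc40a1* and *Cp* in CCR2+ macrophage-like cells, *Cd163*, *Slc40a1* and *Cp* in monocyte-like cells and *Cd163*, *Blvrb* and *Cp* in neutrophil-like cells, and no difference is read from them.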

Other observations

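Over 16 macrophage-like, monocyte-like and neutrophil-like clusters, with both libraries summed, 9449 genes were compared with each member by Pearson r of log2(CPM + 10). Clusters share libraries and depth, and members of the same class share cells, so these are descriptions. The level of *Cd163* ran most closely with *Bmp2* (0.967), *Lyve1* (0.965) and *Sult1a1* (0.960), and that of *Cp* with *Fcna* (0.939), *Lyve1* (0.932) and *Bmp2* (0.932), so that the receptor and the ferroxidase shared *Lyve1* and *Bmp2* among their nearest genes. *Hp* ran with *Mcemp1* (0.983), *Nfe2* (0.970) and *Msrb1* (0.956), *Hmox1* with *Cant1* (0.907), *Dusp7* (0.905) and *Ly96* (0.903), and *Fth1* with *Gabarap* (0.953), *Atp6v0c* (0.941) and *Psenen* (0.929). *Slc40a1* ran with *Myl2* (0.893), a cardiomyocyte gene, then *Ccdc126* (0.885) and *Bmpr1a* (0.866). The summed level of 8 cardiomyocyte genes was 103 CPM in WT and 76.6 in KO CCR2- macrophage-like cells and 35.6 and 36.0 in neutrophil-like cells, the classes with *Slc40a1*. It was 7.88 and 7.49 CPM in monocyte-like cells. CCR2+ macrophage-like cells had 48.6 and 16.0 CPM of these genes, in WT more than neutrophil-like cells, but *Slc40a1* at only 4.82 and 5.10 CPM. The part of cardiomyocyte RNA in this likeness was not tested. *Ftl1* ran most closely with its near copy *Ftl1-ps1* (0.942).

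Of the 62 other pathway genes, 53 were measured in at least 1 of the 4 classes and 43 were highest in the same class in both libraries. Of these, 21 were highest in CCR2- macrophage-like, 8 in CCR2+ macrophage-like, 6 in monocyte-like and 8 in neutrophil-like cells. The same counts were not made over all genes, so they are no result about the list. At least 3-fold over the next class in both libraries were *Slc46a1*, a folate and heme carrier, *Slc39a8*, a metal importer, and *Slc22a17*, a lipocalin 2 receptor, in CCR2- macrophage-like cells. In neutrophil-like cells these were *Ltf* (lactoferrin, 2292 CPM in WT and 2583 CPM in KO), *Lcn2*, *Fbxl5*, the sensor that marks an iron regulatory protein for breakdown (585 and 560 CPM), *Slc7a11*, the cystine importer (983 and 709 CPM), and *Steap4*, a metalloreductase (36.4 and 49.5 CPM). *Slc46a1* was at 11.2 CPM in both libraries in CCR2- macrophage-like cells, with 326 and 165 UMIs, and at 0 UMIs in neutrophil-like cells.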
